A study of Mus musculus with 9 samples.

Results

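The genes of cholesterol and fatty acid synthesis were followed across 9 libraries of polyadenylated RNA from mouse hippocampus. The set was a fixed list of 33 genes, 20 of the sterol branch and 13 of the fatty acid branch, found by matching the Ensembl identifiers of the deposited table to GENCODE M21 symbols. All 33 were among the 14779 genes of the table, and all 33 passed the filter on low counts that left 14696 genes for testing. The study compared 3 groups of 3 mice. Mice of the Air+IgG group were kept in air, without ethanol, and carry the treatment tag "iso". The CIE+IgG mice had chronic intermittent ethanol exposure (CIE) with the same tag, and the CIE+IL17 Ab mice had CIE together with an antibody against the cytokine IL-17A. Every group therefore received an antibody preparation, and both CIE groups shared the ethanol exposure. Strain, age, sex, ethanol dose and antibody dose are not stated in the labels, so groups are described by title alone, and for short as the air, ethanol and antibody libraries.

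Cells make cholesterol from acetyl-CoA through mevalonate and squalene, and a chain of enzymes then trims lanosterol to cholesterol. The transcription factor SREBP-2, encoded by Srebf2, drives most genes of that chain when membrane sterol is low, and the INSIG proteins hold it back when sterol is plentiful. SREBP-1, encoded by Srebf1, chiefly drives fatty acid synthesis, in which citrate is split to acetyl-CoA, carboxylated, built into palmitate, desaturated and elongated. Brain makes nearly all of its own cholesterol. Astrocytes supply neurons with it, and oligodendrocytes use large amounts of sterol and of long-chain fatty acids for myelin.

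The promoters of the sterol branch carry shared sequence words, and some are shown here as the reference sequence of genes that SREBP proteins are known to drive. Whether these words bear on the measured levels was not tested. Of the 33 members, 25 matched the RefSeq promoter table of build GRCm38.p6. Fads1, Fdft1, Fdps, Lpl, Scd1, Scd2, Sqle and Stard4 had no match, so their promoters were not searched. For matched members the 250 bases before each start were searched on both strands for CCAAT. That word is bound by nuclear factor Y, a known partner of SREBP proteins. The word was present before at least 1 start in 16 of 16 matched sterol genes and in 5 of 9 matched fatty acid genes, against 40.3% of 11278 tested genes and 33.8% of all 32851 windows of that length. In the sterol genes the match nearest the start lay 12 to 216 bases before it (median 46), and in 13 of the 16 it lay within 100 bases. CACNCCAC, the core letters of the classical sterol regulatory element, was found in 2 sterol genes (Hmgcs1 and Insig1) and in 0 of 9 fatty acid genes, against 6.62% of tested genes and 5.29% of all windows. These are matches of letters, not measured binding sites. The 250 bases before the start of 3 early sterol genes and 2 fatty acid genes follow, each 5′ to 3′ on the gene's own strand, with matches to CCAAT or CACNCCAC on either strand in capitals. Hmgcs1 is at chr13:119690101-119690350 (plus strand), Mvk at chr5:114444019-114444268 (plus), Mvd at chr8:122443423-122443672 (minus), Fasn at chr11:120824548-120824797 (minus) and Acly at chr11:100528001-100528250 (minus).
Hmgcs1: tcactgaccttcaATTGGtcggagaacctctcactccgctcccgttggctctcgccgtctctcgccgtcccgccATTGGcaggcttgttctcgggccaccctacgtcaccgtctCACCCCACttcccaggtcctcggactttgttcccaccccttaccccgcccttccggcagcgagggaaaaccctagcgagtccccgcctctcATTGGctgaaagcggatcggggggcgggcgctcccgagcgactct
Mvk: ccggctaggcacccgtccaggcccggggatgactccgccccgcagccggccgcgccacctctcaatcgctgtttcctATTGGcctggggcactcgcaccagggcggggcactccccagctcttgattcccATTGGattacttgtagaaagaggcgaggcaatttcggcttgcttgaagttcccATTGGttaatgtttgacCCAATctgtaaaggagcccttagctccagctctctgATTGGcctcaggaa
Mvd: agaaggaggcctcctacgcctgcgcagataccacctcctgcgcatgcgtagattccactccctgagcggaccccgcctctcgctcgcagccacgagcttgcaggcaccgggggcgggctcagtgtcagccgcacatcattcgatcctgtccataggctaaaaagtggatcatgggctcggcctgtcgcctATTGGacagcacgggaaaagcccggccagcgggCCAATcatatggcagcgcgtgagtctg
Fasn: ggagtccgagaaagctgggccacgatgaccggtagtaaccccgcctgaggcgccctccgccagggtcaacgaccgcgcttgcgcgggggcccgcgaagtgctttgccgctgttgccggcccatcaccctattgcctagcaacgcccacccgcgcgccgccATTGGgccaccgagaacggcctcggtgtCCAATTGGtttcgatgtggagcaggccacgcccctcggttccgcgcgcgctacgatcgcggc
Acly: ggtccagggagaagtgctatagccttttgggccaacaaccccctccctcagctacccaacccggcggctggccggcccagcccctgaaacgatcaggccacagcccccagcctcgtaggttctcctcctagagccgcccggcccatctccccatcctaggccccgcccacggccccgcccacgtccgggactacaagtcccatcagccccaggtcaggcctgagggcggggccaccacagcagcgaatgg

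Hmgcs1 held 3 CCAAT matches and 1 CACNCCAC match, and Mvk held 5 CCAAT matches, the nearest 14 bases before its start. Mvd had a match 27 and another 60 bases before the start. Fasn had 3, of which a pair overlap in the run CCAATTGG, and Acly had none of either word. GGGCGG, a word bound by Sp1, was found in 15 of 16 sterol and 5 of 9 fatty acid genes, against 62.5% of tested genes. CACGTG was found in 4 of 16 and 1 of 9, against 9.56% of tested genes.

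Library totals ran from 7372658 to 11894628 counts, and the members held between 36 and 27945.05 estimated counts in a library. Levels are in CPM, counts scaled to a common library total with TMM. Lars2 took 7.13% of counts in Air+IgG 2 and 6.71% in CIE+IL17 Ab 1, against at most 0.0207% in the other 7 libraries. The libraries also differed in markers of brain region. Summed markers of thalamus and habenula were 180 to 266 CPM in Air+IgG, 227 to 430 CPM in CIE+IgG and from 789 to 1610 CPM with the antibody, and the habenula marker Pou4f1 was at 0 in 4 of the 6 IgG libraries and at 5.59 to 11.4 CPM with the antibody. Summed markers of CA1 pyramidal neurons, which the hippocampus should hold, were 533 to 622 CPM, 325 to 563 CPM and 101 to 199 CPM in the same order, and striatal markers reached 1340 CPM in CIE+IgG 3 and 845 CPM in CIE+IL17 Ab 3, against 261 to 280 CPM elsewhere. Tissue makeup and antibody treatment cannot be told apart where they move together, and in bulk RNA fewer cells of a type and less RNA per cell cannot be told apart either.

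Per kilobase of exon, the most abundant member in all groups was Scd2, a stearoyl-CoA desaturase that makes monounsaturated fatty acids in brain. Its level was 298 ± 10.7 CPM per kb in Air+IgG, 337 ± 33.9 after ethanol and 415 ± 70.5 with the antibody (SD, n = 3). Scd1 followed in order over all libraries, at 37.9 ± 4.19, 46.7 ± 5.4 and 82.0 ± 25.3 CPM per kb, and in Air+IgG it was below Hmgcs1, Acsl3, Fasn and Fads1. Hmgcs1, the synthase of the HMG-CoA from which mevalonate is made, was the most abundant sterol member, at 54.3 ± 10.1 CPM per kb in Air+IgG, 51.1 ± 1.99 after ethanol and 56.4 ± 8.05 with the antibody (SD, n = 3). Fads1, the next in order, overlapped with it in Air+IgG and CIE+IL17 Ab but not in CIE+IgG, where Fads1 was at 46.1 ± 1.08 CPM per kb. At the low end were Tm7sf2, a sterol reductase, at 2.84 CPM per kb in Air+IgG, and Stard4, at 3.18. Lpl was at 3.46 CPM per kb in Air+IgG and at 0.98 in CIE+IL17 Ab, the lowest level of any member.

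**Figure D1:**
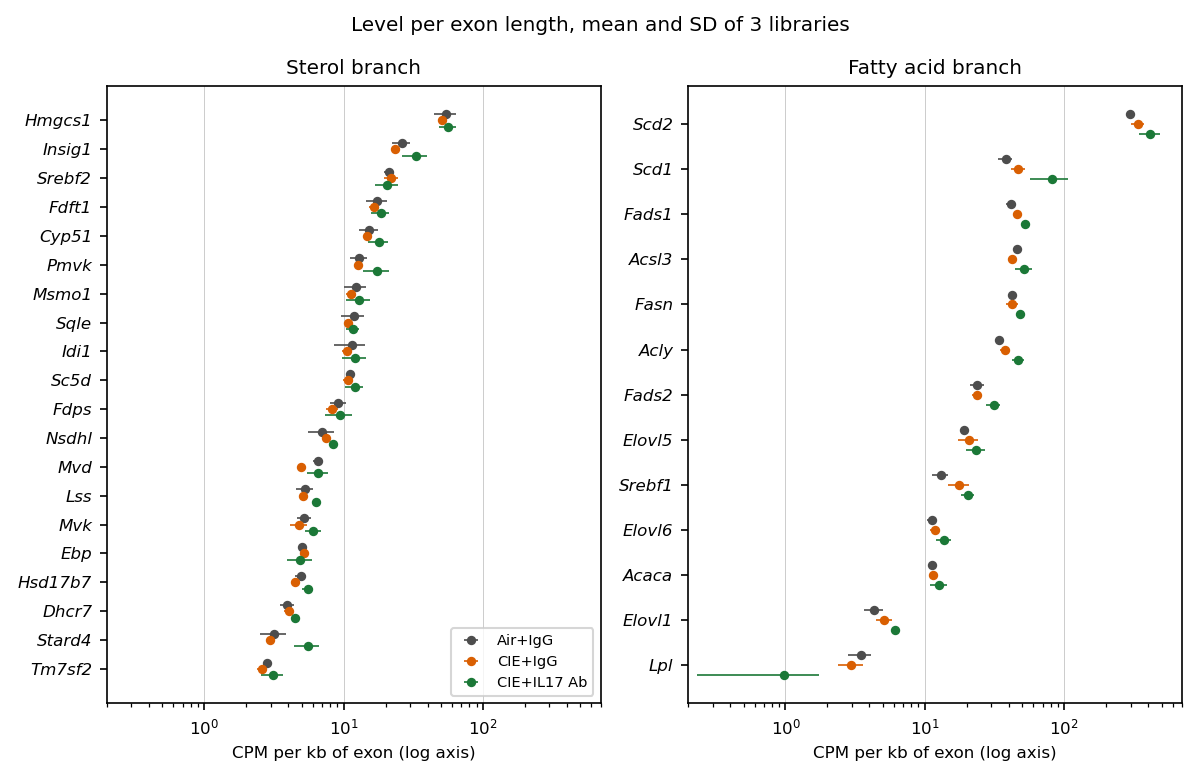
Level of each of the 33 members per kilobase of exon, on a log axis, as the mean of 3 libraries with bars of 1 SD (grey Air+IgG, orange CIE+IgG, green CIE+IL17 Ab). Scd2 stands above all other members in each group, and Lpl in CIE+IL17 Ab is the lowest point.

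Ethanol exposure was tested by comparing CIE+IgG with Air+IgG. No member passed at an adjusted p under 0.05 in edgeR's quasi-likelihood test, and 0% of all tested genes passed. At an unadjusted p under 0.05 there were 2.76% of all genes, with 1 of 20 sterol members (Mvd) and 1 of 13 fatty acid members (Srebf1). DESeq2 and limma-voom called 0 members as well, beside 6 and 0 calls among all tested genes. Of the sterol branch, 4 of 20 members had a fitted log2 difference above 0 (median -0.09), and of the fatty acid branch 11 of 13 did (median 0.12), against 48% of all tested genes and a median of -0.01. The sterol median was 0.03 within the 6 libraries numbered 54 to 60 in the labels, 0.0078 without Air+IgG 3 and -0.21 without Air+IgG 2, and 12 of the 20 members changed the sign of their difference in at least 1 alternative fit. The fatty acid median was 0.067 without Air+IgG 2 and 0.074 without CIE+IgG 3.

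In the sterol branch the lone member whose groups did not overlap was Mvd, the decarboxylase that closes the mevalonate segment (9.44% of all genes did not overlap in either direction, and 4.8% did not overlap with ethanol lower). Mvd was at 13.1, 11.2 and 12.3 CPM in Air+IgG and at 9.24, 9.25 and 9.04 CPM in CIE+IgG. The 3 ethanol libraries lay close together below all air libraries, with a fitted log2 difference of -0.41 (SE 0.15), and the difference did not pass in edgeR's quasi-likelihood test (adjusted p = 1). A gene on the opposite strand, Gm20388, overlaps Mvd, and whether the counting used strand is not given in the sources used here.

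Srebf1, Scd1 and Scd2 were the 3 fatty acid members whose CIE+IgG libraries all lay above the Air+IgG libraries, as 4.64% of all genes did. Srebf1 was at 84.2, 65.9 and 68.9 CPM in Air+IgG and at 93.7, 87.0 and 118 CPM in CIE+IgG, a fitted log2 difference of 0.45 (SE 0.14). Scd1 stood at 200, 162 and 193 CPM in air and 213, 214 and 259 CPM after ethanol. Library CIE+IgG 3 was the highest of its group for Srebf1 and for both desaturases. That library also had the highest sum of oligodendrocyte markers in its group, 7900 CPM against 5010 and 5980 CPM, and the part of this in the result was not tested.

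Addition of the antibody was tested within ethanol-exposed mice, CIE+IL17 Ab against CIE+IgG. Stard4, a carrier of cholesterol between membranes in the cytosol, rose and was the only one of the 33 members to pass, where 3.18% of all tested genes did (1.78% higher and 1.41% lower). Of the sterol members 18 of 20 had a fitted log2 difference above 0 (median 0.19), and of the fatty acid members 12 of 13 did (median 0.20), against 52.2% of all tested genes and a median of 0.01. Without CIE+IL17 Ab 3 the sterol median was 0.31, and without CIE+IgG 3 the fatty acid median was 0.31. Groups did not overlap in the higher direction for 7 of 20 sterol and 6 of 13 fatty acid members (12.7% of all genes) and in the lower direction for 0 and 1 (13.2%), and 25.9% of all genes did not overlap in either direction. At an unadjusted p under 0.05 there were 6 sterol and 6 fatty acid members, against 22.3% of all tested genes.

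Stard4 (ENSMUSG00000024378) was at 17.1, 16.5 and 16.4 CPM in CIE+IgG and at 30.4, 37.6 and 25.1 CPM in CIE+IL17 Ab. All 3 antibody libraries were above every other library of the study, since the Air+IgG libraries were at 19.5, 13.6 and 20.3 CPM. The log2 change against CIE+IgG was 0.90 (SE 0.18, adjusted p = 0.0418 in edgeR's quasi-likelihood test), and against Air+IgG it was 0.80 (SE 0.18, adjusted p = 0.0264). No 50-base window of its transcripts was shared with another gene. The first of these calls was kept in 2 of 9 fits that left out 1 library, those without Air+IgG 2 or without CIE+IL17 Ab 3, with changes of 0.73 to 1.03 and adjusted p of 0.0136 to 0.177. The second was lost without any 1 of the Air+IgG libraries or without CIE+IL17 Ab 2 (adjusted p up to 0.0987). Calls among all tested genes in the fits that left out 1 library ran from 0 to 1313 against CIE+IgG (468 with all 9). Against air they ran from 0 to 2305 (1990 with all 9).

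Insig1, the membrane protein that retains SREBP in the endoplasmic reticulum and is itself a sterol-responsive gene, was at 68.0, 78.8 and 71.4 CPM in CIE+IgG and at 124, 102 and 82.0 CPM with the antibody. The groups did not overlap, but the highest Air+IgG library, at 91.4 CPM, was above the lowest antibody library. The fitted log2 difference from CIE+IgG was 0.50 (SE 0.16, adjusted p = 0.114 in edgeR's quasi-likelihood test). Without CIE+IL17 Ab 3 it passed (0.63, adjusted p = 0.0346), and Acsl3, Lpl, Scd1 and Stard4 passed in the same edgeR fit. Among all tested genes that fit gave 1313 calls, against 468 with all 9 libraries.

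The mevalonate and lanosterol enzymes gave smaller differences. Pmvk, phosphomevalonate kinase, was at 22.8, 21.0 and 21.3 CPM in CIE+IgG and 27.8, 36.9 and 25.0 CPM with the antibody, a log2 difference of 0.47 (SE 0.16). Mvd was at 12.5, 14.2 and 10.0 CPM with the antibody, above its CIE+IgG libraries and within the range of air except for 1 library on either side. Lss, which folds squalene epoxide into lanosterol, stood at 51.8, 54.4 and 59.0 CPM against 67.3, 72.6 and 64.6 CPM, with no overlap. Hsd17b7, a sterol ketone reductase, was at 23.8, 23.6 and 21.4 CPM and then at 25.7, 30.8 and 28.4 CPM. None of these 4 passed in edgeR's quasi-likelihood test, with adjusted p of 0.13 for Pmvk, 0.149 for Mvd, 0.146 for Lss and 0.145 for Hsd17b7.

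Groups overlapped for Hmgcs1, Sqle, Dhcr7 and Srebf2, the regulated or late steps of sterol synthesis and their transcription factor. Hmgcs1 was at 228 to 245 CPM in CIE+IgG, 218 to 289 CPM in CIE+IL17 Ab and 199 to 291 CPM in Air+IgG. Sqle, the squalene epoxidase and a rate-limiting step, was at 55.8 to 62.5 CPM, 57 to 69.8 CPM and 51.6 to 73.2 CPM in the same order. For both genes the air libraries spanned the widest range, with Air+IgG 2 at the bottom of it and Air+IgG 3 at the top. Dhcr7, the last reductase before cholesterol, ran from 21.0 to 27.3 CPM over all 9 libraries, and Srebf2 from 116 to 173 CPM, with its lowest value in CIE+IL17 Ab 1. Srebf2 and Ebp, a sterol isomerase, were the 2 sterol members with a fitted difference below 0 for CIE+IL17 Ab against CIE+IgG. Both changed sign in at least 1 alternative fit of that comparison.

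Most other sterol members kept overlapping ranges. Mvk, mevalonate kinase, was at 12.2 to 15.1 CPM in Air+IgG, 11.5 to 15.0 CPM in CIE+IgG and 14.8 to 18.7 CPM with the antibody. Cyp51, the lanosterol demethylase, was at 57 to 77.7 CPM, 60.6 to 67.2 CPM and 65.0 to 90.2 CPM. Fdft1, squalene synthase, was at 60.5 to 85.4 CPM, 63.2 to 74.0 CPM and 64.6 to 84.6 CPM. In Fdft1, as in Msmo1 (60.1 to 86.6 CPM, 65.7 to 75.7 CPM and 62.0 to 91.7 CPM), a sterol methyl oxidase, the air and antibody groups spread more widely than the ethanol group. Sc5d, a sterol desaturase, was at 50.8 to 58.5 CPM, 49.7 to 56.5 CPM and 51.4 to 67.5 CPM. The exception was Nsdhl, a sterol dehydrogenase, whose antibody libraries at 23.1 to 24.5 CPM lay above those of CIE+IgG at 20 to 22.4 CPM and of Air+IgG at 15.1 to 22.9 CPM. Estimates of Idi1 (33 to 51.3 CPM over all libraries) and Fdps (30.7 to 47.7 CPM), which make the isoprenoid building blocks, are less certain, because 17.7% and 26.2% of their 50-base windows also occur in Gm13502 and Gm43738. Tm7sf2 (10.4 to 15.8 CPM over all libraries) lies across Vps51 on the same strand, and Ebp was at 9.07 to 13.6 CPM.

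Of the fatty acid branch, 0 of 13 members passed against CIE+IgG in edgeR's quasi-likelihood test. DESeq2 called 2 (Scd1 and Lpl) and limma-voom called 1 (Lpl). Among all tested genes edgeR's test gave 468 calls, DESeq2 1481 and limma-voom 590. Scd1, the stearoyl-CoA desaturase also found in liver and fat, was at 213, 214 and 259 CPM in CIE+IgG and 537, 371 and 295 CPM with the antibody. Its log2 difference was 0.81 (SE 0.20, adjusted p = 0.0666). The antibody libraries all lay above the ethanol libraries, and CIE+IL17 Ab 1 was the highest of all. Fads2, the delta-6 desaturase of polyunsaturated fatty acids, gave 84.4, 71.9 and 79.1 CPM against 116, 96.6 and 95.2 CPM, again without overlap (log2 difference 0.38, adjusted p = 0.1). Lpl, which is no synthetic enzyme but frees fatty acids from circulating lipoproteins for uptake, was at 38.1, 29.3 and 25.8 CPM against 5.00, 6.50 and 19.3 CPM. It was the lone member whose antibody libraries all lay below the ethanol libraries (log2 difference -1.59, SE 0.44, adjusted p = 0.0835).

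**Figure D2:**
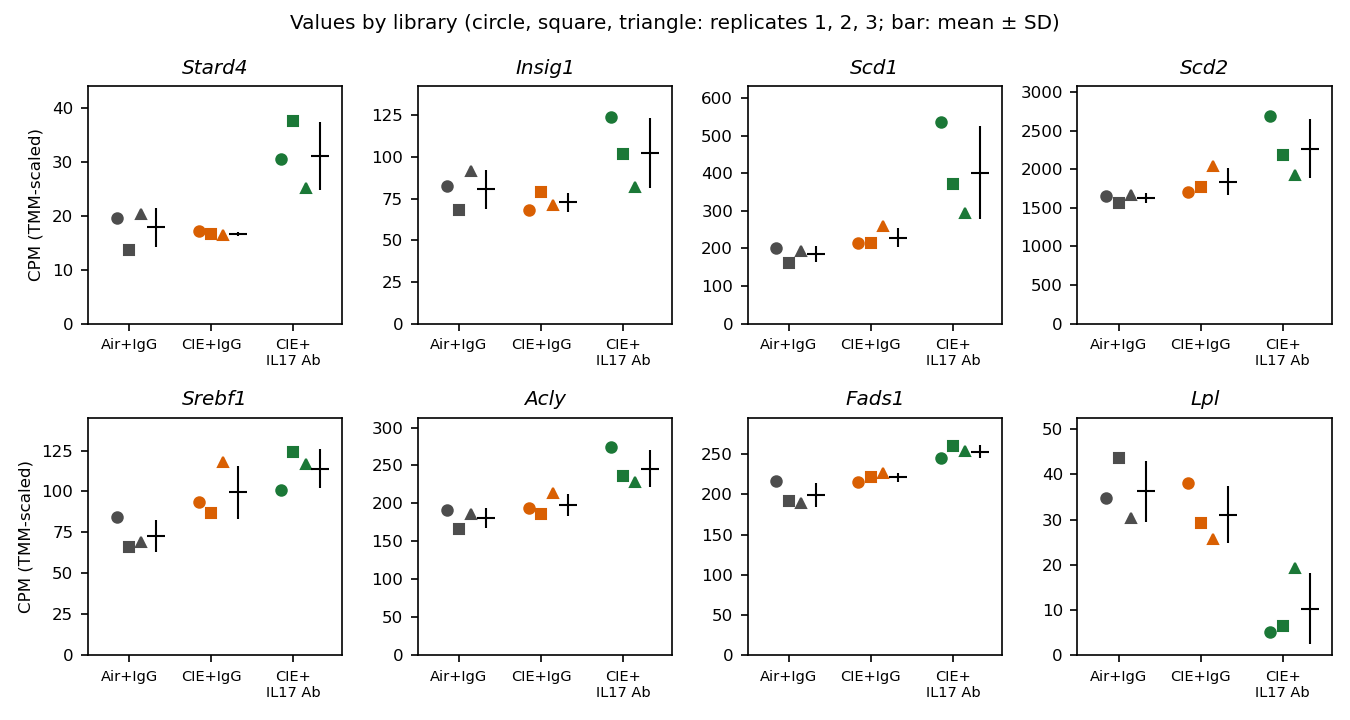
CPM of 8 members in each library (circle, square and triangle for replicates 1, 2 and 3), with the group mean and a bar of 1 SD beside the points and axes from 0. Stard4 in CIE+IL17 Ab lies at 25.1 to 37.6 CPM, above all other libraries, and Lpl lies at 5.00 to 19.3 CPM, below them.

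Ethanol with the antibody was also set against the air controls, CIE+IL17 Ab against Air+IgG. The antibody libraries enter this comparison and the last one, and the air libraries this one and the first, so the 3 comparisons are not independent. Here 6 of 13 fatty acid members passed, 5 of them higher (Scd1, Srebf1, Scd2, Acly and Fads1) and 1 lower (Lpl), and 1 of 20 sterol members passed (Stard4, higher). Of all tested genes 13.5% passed, 6.83% higher and 6.71% lower. The median log2 difference was 0.34 for the fatty acid branch, with 12 of 13 members above 0, and 0.12 for the sterol branch, with 17 of 20 above 0, against 51.6% of all tested genes and a median of 0.01. The sterol median was 0.061 without Air+IgG 2, 0.060 without CIE+IL17 Ab 2, 0.18 without Air+IgG 3 and 0.17 without CIE+IL17 Ab 3, and 10 of the 20 sterol members changed sign in at least 1 alternative fit, against 0 of 13 fatty acid members. Groups did not overlap in the higher direction for 9 fatty acid and 2 sterol members (17.3% of all genes) and in the lower direction for 1 and 0 (18.1%), and 35.3% of all genes did not overlap in either direction. At an unadjusted p under 0.05 there were 3 sterol and 9 fatty acid members, against 32% of all tested genes.

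Scd1 (ENSMUSG00000037071, chr19:44394455-44407879) had the largest rise of the branch. It went from 185 ± 20.5 CPM in Air+IgG to 401 ± 124 CPM in CIE+IL17 Ab (SD, n = 3), a log2 change of 1.11 (SE 0.21, adjusted p = 0.0156 in edgeR's quasi-likelihood test). The lowest antibody library, at 295 CPM, was above the highest air library, at 200 CPM. Its neighbour Scd2 (chr19:44293674-44306864) was at 1660, 1560 and 1670 CPM in air, 1710, 1770 and 2050 CPM in CIE+IgG and 2690, 2190 and 1930 CPM with the antibody. Scd2 rose by 0.48 against air (SE 0.14, adjusted p = 0.0482), and its lowest antibody library lay below CIE+IgG 3. Of the 50-base windows of Scd1 transcripts 4.56% also occur in Scd2, so a small part of the estimated counts may be divided between them.

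The regulator Srebf1 and Acly, the enzyme that supplies acetyl-CoA, rose against air as well. Srebf1 (ENSMUSG00000020538, chr11:60199089-60222581), at 101, 124 and 117 CPM with the antibody, was above all air libraries and overlapped CIE+IgG. Its log2 change against air was 0.65 (SE 0.14, adjusted p = 0.0249 in edgeR's quasi-likelihood test). Rai1 overlaps Srebf1 on the opposite strand. Acly (ENSMUSG00000020917, chr11:100476353-100528000), the ATP citrate lyase, was at 191, 166 and 186 CPM in air, 194, 186 and 214 CPM in CIE+IgG and 274, 236 and 228 CPM with the antibody. Its antibody libraries were above all 6 others, and its log2 change was 0.44 (SE 0.10, adjusted p = 0.0281).

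The enzymes between Acly and the desaturases did not pass. Acaca, the acetyl-CoA carboxylase that is the rate-limiting step, was at 192, 183 and 200 CPM in air, 195, 194 and 201 CPM in CIE+IgG and 248, 209 and 189 CPM with the antibody, so that CIE+IL17 Ab 3 lay below 5 of the 6 IgG libraries. Of its 50-base windows 30.4% also occur in Gm5182, which makes its estimate uncertain. Fasn, fatty acid synthase, was at 481, 474 and 428 CPM in air, 479, 505 and 413 CPM in CIE+IgG and 540, 543 and 505 CPM with the antibody, a log2 difference of 0.20 from air (SE 0.10, adjusted p = 0.204 in edgeR's quasi-likelihood test).

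Among the desaturases of polyunsaturated fatty acids, Fads1 (ENSMUSG00000010663, chr19:10182888-10196877), the delta-5 desaturase, had the smallest spread of the members. It was at 217, 192 and 190 CPM in air, 216, 222 and 227 CPM in CIE+IgG and 245, 261 and 254 CPM with the antibody, above all other libraries. Its log2 change against air was 0.34 (SE 0.081, adjusted p = 0.0285 in edgeR's quasi-likelihood test). Fads2 gave 0.38 (adjusted p = 0.0591), and Elovl1, an elongase of very-long-chain fatty acids, gave 0.49 (adjusted p = 0.0586). Elovl1 was at 13.8, 11.6 and 10.1 CPM in air and 17.1, 16.7 and 16.0 CPM with the antibody, without overlap, and Cdc20 lies across it on the opposite strand. DESeq2 called both Fads2 and Elovl1, and its calls among all tested genes were 2799, against 1990 in edgeR's test. The elongases Elovl5 and Elovl6 ran from 66.0 to 68.8 CPM and from 68.8 to 78.4 CPM in air, and from 72.2 to 96.2 CPM and from 76.2 to 94.0 CPM with the antibody. Elovl5 did not overlap with air and Elovl6 did, and neither passed. Acsl3, which activates long-chain fatty acids, was at 190 to 209 CPM in air, 175 to 195 CPM in CIE+IgG and 190 to 252 CPM with the antibody, so that its groups overlapped.

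Lpl (ENSMUSG00000015568, chr8:68880491-68907448) fell against air, from 34.8, 43.7 and 30.3 CPM to 5.00, 6.50 and 19.3 CPM. The log2 change was -1.81 (SE 0.44, adjusted p = 0.034 in edgeR's quasi-likelihood test), and CIE+IL17 Ab 3 stood well above the other 2 antibody libraries. Without that library the change was -2.64. The glutamatergic neuron marker Slc17a7 followed a like order, at 24.0, 104 and 338 CPM in the antibody libraries against 396 to 861 CPM in the 6 IgG libraries. Of the CA1 pyramidal markers 5 of 7 fell against air, and of the microglia markers 3 of 8 did, where 6.71% of all tested genes fell. Summed microglia markers were 281 to 293 CPM with the antibody, 333 to 389 CPM in air and 352 to 367 CPM in CIE+IgG. The part of these neuronal and microglial markers in the Lpl result was not tested.

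**Figure D3:**
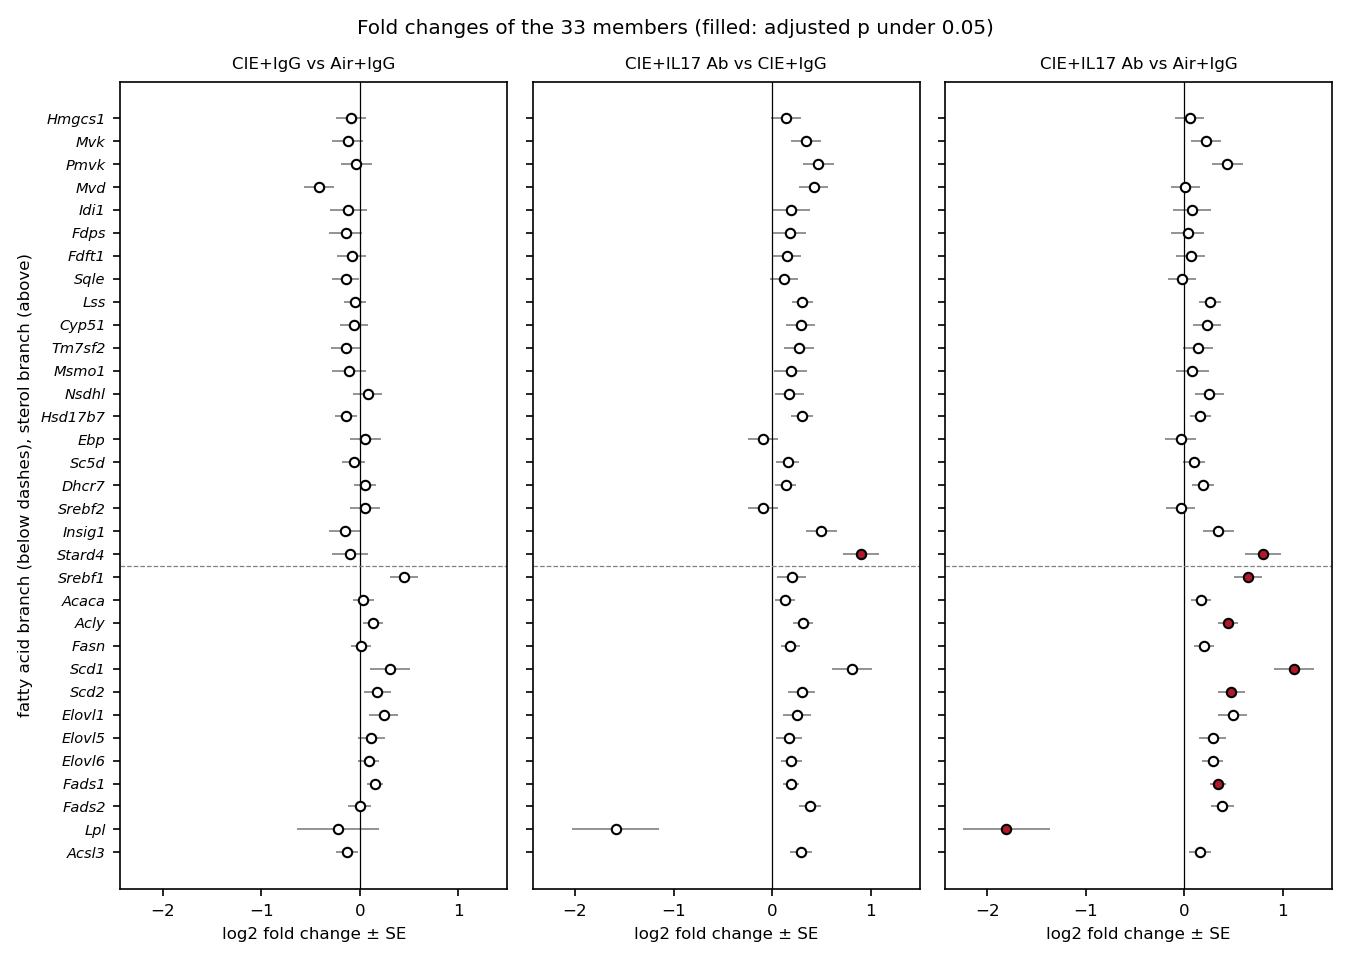
Fitted log2 difference of each of the 33 members in the 3 comparisons, with bars of 1 standard error, and filled points for adjusted p under 0.05 in edgeR's quasi-likelihood test. Filled points appear for Stard4 with the antibody against either control group and for Srebf1, Acly, Scd1, Scd2, Fads1 and Lpl against Air+IgG.

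The fatty acid branch and the markers of oligodendrocytes both summed higher with the antibody than in air. The fatty acid branch summed to 3270 to 3480 CPM in Air+IgG, 3550 to 3960 CPM in CIE+IgG and from 4000 to 5210 CPM with the antibody, with no overlap between groups. Scd2 alone gave 1560 to 1670 CPM, 1710 to 2050 CPM and 1930 to 2690 CPM of these sums. The average of centred log2 CPM, which weighs members alike, overlapped between air (highest -0.046) and ethanol (lowest -0.052). The 14 oligodendrocyte markers summed to 4390 to 4990 CPM in air, 5010 to 7900 CPM after ethanol and 6630 to 8090 CPM with the antibody. None was at 0, and the ethanol and antibody ranges overlapped. In CIE+IL17 Ab 1 and CIE+IL17 Ab 2 these markers summed to 8090 and 8050 CPM, and the fatty acid branch to 5210 and 4450 CPM. In CIE+IL17 Ab 3 the markers summed to 6630 CPM and the branch to 4000 CPM. In CIE+IgG 3 the markers were nearly as high, at 7900 CPM, with the branch at 3960 CPM. Against air 10 of the 14 rose with the antibody, where 6.83% of all tested genes rose, among them Mbp (2010, 1720 and 1650 CPM against 3130, 2950 and 2680 CPM), Mag and Fa2h, while 0 of 14 passed in the other 2 comparisons. Of the 11 astrocyte markers 8 had a fitted log2 difference above 0 against air (median 0.23), and their score, the average of centred log2 CPM, was -0.06 to 0.27 with the antibody and -0.07 to 0.01 in air. The 1 astrocyte marker that passed against air, the glutamate transporter Slc1a2, fell from 5768 ± 142 to 3670 ± 531 CPM (SD, n = 3). Including Slc1a2, the summed astrocyte markers stood at 5300 to 6360 CPM against 7890 to 8070 CPM in air. Against CIE+IgG the 1 that passed, Gja1, rose (log2 difference 0.46, adjusted p = 0.046 in edgeR's quasi-likelihood test), where 1.78% of all tested genes rose. In that comparison 8 of the 11 astrocyte markers were above 0 and 3 below. Summed thalamus and habenula markers were higher with the antibody too, at 789 to 1610 CPM against 180 to 266 CPM in air. CA1 markers were lower, at 101 to 199 CPM against 533 to 622 CPM. The part of these cell types and brain regions in the fatty acid result was not tested. The sterol branch, by contrast, summed to 970 to 1230 CPM, 1020 to 1110 CPM and 1070 to 1300 CPM, and these ranges overlap.

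Members also varied within groups, and not in the same way in both branches. Each member's log2 CPM was centred on its average across the 9 libraries, and a branch score is the average of these centred values in a library. It ran in the sterol branch from -0.21 to 0.12 in Air+IgG, from -0.15 to -0.05 in CIE+IgG and between -0.04 and 0.25 with the antibody. In the fatty acid branch the score ran from -0.15 to -0.05, from -0.05 to 0.07 and from 0.08 to 0.19. The sterol scores of antibody and air libraries overlapped, whereas the fatty acid scores of the antibody libraries were above all others. Air+IgG 2, one of the 2 Lars2-rich libraries, held the lowest value of 9 of 20 sterol and 6 of 13 fatty acid members, against 17.3% of all tested genes. CIE+IL17 Ab 1, the other, held the highest value of 6 sterol and 9 fatty acid members, against 23.3% of all tested genes. CIE+IL17 Ab 2, which is not Lars2-rich, held the highest value of 8 sterol and 3 fatty acid members, against 16.7% of all tested genes. The median within-group SD on the log2 scale was 0.196 for the sterol branch and 0.148 for the fatty acid branch, against 0.191 for all tested genes.

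**Figure D4:**
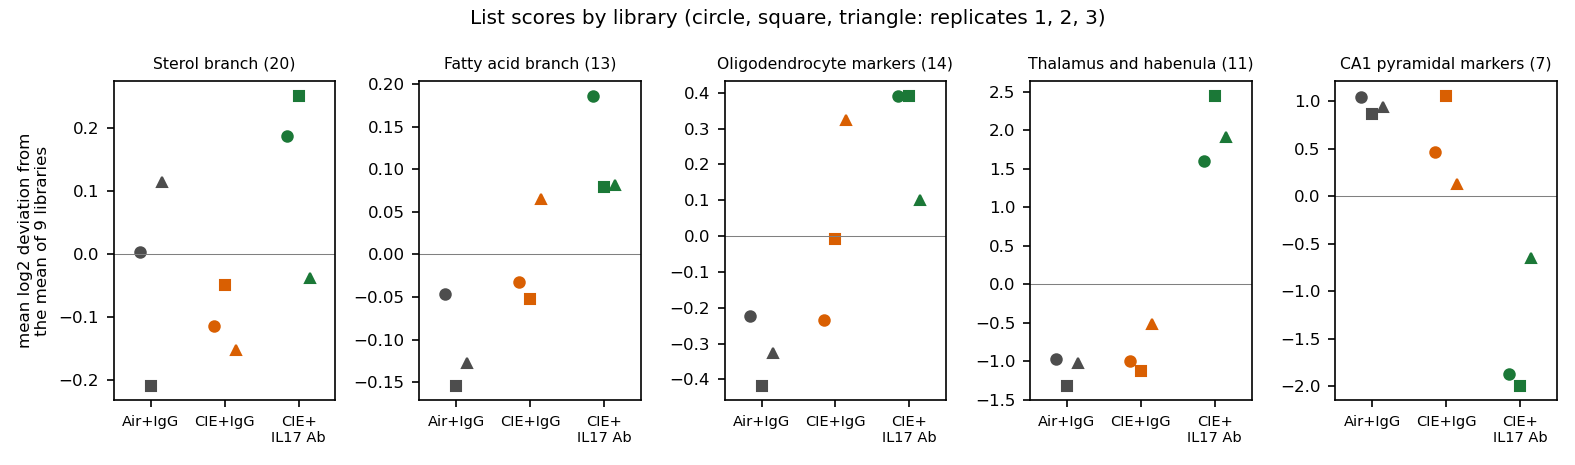
Score of each branch and of 3 marker lists in each library, as the average centred log2 CPM of its genes (circle, square and triangle for replicates 1, 2 and 3, the number of genes in brackets, a separate scale in each panel). The fatty acid branch is at 0.08 to 0.19 in CIE+IL17 Ab, above all IgG libraries, while the sterol branch overlaps.

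Other genes of the same pathways, from lists that do not include the members, were called about as often as all tested genes, of which 13.5% passed against air (6.83% higher and 6.71% lower). Against air 0 of 17 other sterol genes rose and 2 fell, Rnf139 (log2 change -0.31), a ubiquitin ligase of the endoplasmic reticulum, and Sec24d (-0.55), part of the coat that carries cargo to the Golgi. Of 25 genes of sterol transport and efflux 3 rose and 1 fell. The late endosomal cholesterol carriers Npc2 (0.58) and Npc1 (0.38) and the sterol hydroxylase Cyp27a1 (1.12) rose, and Mylip (-0.54), which marks lipoprotein receptors for degradation, fell. Of 28 further genes of fatty acid synthesis 2 rose and 3 fell. Fads6 (1.10) and Scd3 (0.90), desaturase family members, rose, although Scd3 may share reads with its paralogs, while Acsl5 (-1.01), an acyl-CoA synthetase, Thrsp (-0.92), a lipogenic regulator, and Hacd2 (-0.42), a dehydratase of the elongation cycle, fell. All were read at an adjusted p under 0.05 in edgeR's quasi-likelihood test.

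The storage and oxidation lists each gave 1 call in either direction against air, again beside 13.5% of all tested genes. Of 19 glycerolipid genes 1 rose, the phosphatidate phosphatase Lpin1 (0.60), and 1 fell, the fatty acid carrier Fabp3 (-0.49). Of 19 oxidation genes the mitochondrial carnitine palmitoyltransferase Cpt2 (0.96) rose and its brain relative Cpt1c (-0.52) fell. Against CIE+IgG the antibody libraries differed in 2 genes of these 5 lists, Fads6 (1.03) and Hacd2 (-0.48), where 3.18% of all tested genes passed, and CIE+IgG against Air+IgG gave 0, with 2 at an unadjusted p under 0.05.

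The calls among members depended on single libraries of all 3 groups, as did the calls among all tested genes. Against air, 0 of the 7 called members passed without Air+IgG 2, without Air+IgG 3 or without CIE+IL17 Ab 2. Among all tested genes these fits gave 336, 0 and 218 calls in that order, against 1990 with all 9 libraries. Without Air+IgG 1 there remained Fads1, Scd1 and Srebf1, without CIE+IgG 1 Scd1, Srebf1 and Stard4, and without CIE+IL17 Ab 1 all but Lpl and Scd2. Calls among all tested genes were 478, 1122 and 2249 in these 3 fits. Leaving out CIE+IgG 2 lost Scd2, and leaving out CIE+IgG 3 or CIE+IL17 Ab 3 lost none. All fitted changes kept their sign, from 0.85 to 1.29 for Scd1, 0.57 to 0.76 for Srebf1, 0.36 to 0.49 for Acly, 0.34 to 0.57 for Scd2, 0.30 to 0.41 for Fads1, 0.63 to 0.93 for Stard4 and -2.64 to -1.51 for Lpl. Against air, Scd1 alone passed in the fit with neither Lars2-rich library (log2 change 0.76, adjusted p = 0.0327 in edgeR's quasi-likelihood test). That fit gave 1067 calls among all tested genes.

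The labels number the libraries in 2 runs, 37 to 39 and 54 to 60, whose meaning is not given in the sources used here. Library totals were 10374592 to 11894628 counts in the first run and 7372658 to 9324263 counts in the second, without overlap. Within the 6 libraries of the second run the changes against air were 1.20 for Scd1, 0.54 for Srebf1, 0.49 for Acly, 0.52 for Scd2, 0.29 for Fads1, 0.74 for Stard4 and -1.66 for Lpl. In that fit 0 members passed, with adjusted p of 0.15 to 0.269 in edgeR's quasi-likelihood test, and only 2 of all tested genes did. The first run holds 1 library of each group and gives no spread.

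**Figure D5:**
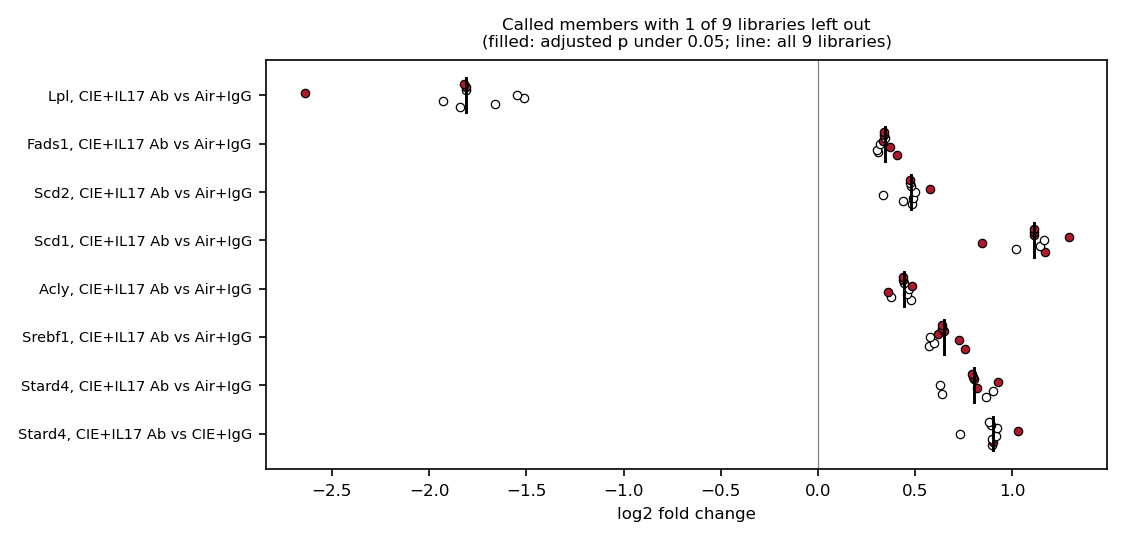
Fitted log2 change of each called member with 1 of the 9 libraries left out in turn, as 9 points a row (filled for adjusted p under 0.05), with a line at the value from all 9 libraries. Points stay on one side of 0 in every row, and Lpl spreads widest, from -2.64 to -1.51.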

How the data were processed

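Hippocampal RNA of 9 mice was measured, 3 in each of 3 groups taken from the sample titles, with strand-specific libraries of polyadenylated RNA per the labels' protocols. The values are expected counts per gene in 1 table that the authors deposited, unscaled. The submitters' processing notes name STAR 2.5.1a, RSEM 1.3.0 and the build GRCm38. Not given in the sources used here are the annotation release and whether genes were filtered. Decimals in 27.1% of values come from dividing reads between genes. GENCODE M21 matched 14628 of 14779 identifiers.

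Rounded counts were tested in edgeR 4.0.16 (R 4.3.3) with TMM scaling, filterByExpr by group (minimum count 10) and the quasi-likelihood F-test, 1 fit of all 9 libraries with 6 residual degrees of freedom. Benjamini-Hochberg adjustment ran over 14696 genes in each comparison, with calls under 0.05. SE is the size of a log2 difference over the square root of F. Totals were 7372658 to 11894628 counts and the common biological coefficient of variation was 0.189, so the spread between mice limits precision. CPM per kb divides by a gene's exon union, and scores used log2(CPM + 0.5). Fits were also run on simulated counts, whose outcome is not given here and on which no result rests.

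The members and lists were chosen with earlier results of these data known. The rule for values in every library took members called in any comparison, those of smallest p up to at least 6 a branch, a set of regulating members, and called members of the pathway lists. It also named promoters of called sterol members, of which none is shown. The promoters shown, the motifs searched, and Fads2, Elovl1 and Ebp were chosen after values were seen. Faxdc2, Gp78, Ch25h and Elovl3 matched no symbol and were not analysed here. The alternatives tried were size factors from DESeq2, the DESeq2 1.42.0 test, limma-voom (limma 3.58.1), no filter, CPM above 1 required in all 9 libraries, a fit of the 2 groups alone, a block for replicate or label number, libraries 54 to 60 alone, neither Lars2-rich library, and each library left out.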

Additional observations from a re-analysis of the deposited data

How the results depend on the processing

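Of the 51 gene differences followed individually (those called and others given with a log2 difference; Srebf2 and Ebp are not among them), 0 changed sign in any alternative. Over all members, the sign changed in at least 1 alternative for 12 of 20 sterol and 4 of 13 fatty acid members for ethanol alone, 2 and 0 against CIE+IgG, and 10 and 0 against Air+IgG. Among all tested genes, CIE+IgG against Air+IgG gave 6 calls with DESeq2 in place of 0. CIE+IL17 Ab against CIE+IgG gave 468 calls, and 1481 with DESeq2, 776 with the label number as a block, 14 with the replicate number as a block, and 1 each with only the 2 groups compared and with only libraries 54 to 60. The range with 1 library left out was 0 (without CIE+IgG 1) to 1313 (without CIE+IL17 Ab 3). CIE+IL17 Ab against Air+IgG gave 1990, and 1192 with only the 2 groups, 571 with the replicate block, 2 with libraries 54 to 60, 1067 without the Lars2-rich libraries, and 0 (without Air+IgG 3) to 2305 with 1 library left out.

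Sterol members called were 1 against CIE+IgG and 1 against Air+IgG. Both counts were 0 with only the 2 groups, with the replicate block and with libraries 54 to 60, and the second was also 0 without the Lars2-rich libraries. The ranges with 1 library left out were 0 to 2 and 0 to 1. Fatty acid members called against CIE+IgG were 0, and 2 with DESeq2, 1 with limma-voom and 0 to 3 with 1 library left out. Against Air+IgG they were 6, and 2 with only the 2 groups, 1 with the replicate block, 0 with libraries 54 to 60, 1 without the Lars2-rich libraries and 0 to 7 with 1 library left out.

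The median log2 difference of the fatty acid branch moved from 0.12 to 0.055 for ethanol alone and from 0.20 to 0.27 against CIE+IgG with libraries 54 to 60, and from 0.34 to 0.21 against Air+IgG without the Lars2-rich libraries. With 1 library left out it ran from 0.18 to 0.31 against CIE+IgG and from 0.29 to 0.41 against Air+IgG. The sterol median for ethanol alone, -0.09, was 0.03 with libraries 54 to 60 and -0.20 without the Lars2-rich libraries, within 1 SD of its score, and with 1 library left out it ran from -0.21 (without Air+IgG 2) to 0.0078 (without Air+IgG 3). The sterol median against Air+IgG, 0.12, was 0.049 without the Lars2-rich libraries and 0.060 to 0.18 with 1 library left out, and the fatty acid median for ethanol alone was 0.067 to 0.15. The cause of these shifts was not tested, except that several alternatives use fewer libraries. Same-numbered libraries of different groups did not deviate together (r from -0.30 to 0.27 over 9 pairs, 2 above 0.1), so the replicate numbers were not taken as pairs. No 2 libraries were duplicates. With 3 mice a group, members with differences of the size of their spread could not be resolved.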

Other observations

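Scd1 and Scd2 encode desaturases of the same reaction, and the share of Scd1 in the pair was highest with the antibody. Scd1 made up 10.8, 9.39 and 10.4% of the counts of the pair in Air+IgG, 11.1, 10.8 and 11.2% in CIE+IgG and 16.6, 14.5 and 13.2% in CIE+IL17 Ab. The antibody libraries were above all 6 others (14.8 ± 1.72% against 11.0 ± 0.208% and 10.2 ± 0.722%, SD, n = 3). The ratio was chosen after its values were seen, so no test is given. It rests on the same counts as the Scd1 and Scd2 changes, and 4.56% of the 50-base windows of Scd1 transcripts also occur in Scd2.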
